A study of Sus scrofa with 2 samples.

Results

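Metallothionein, zinc-sensor and zinc-transporter genes were set side by side in brain and liver tissue of the Rongchang pig (Sus scrofa), a domestic breed from China, with 1 RNA sequencing library for each tissue. The set holds 10 genes picked by name, and 8 of them were matched to a row, out of 21419 genes in all after rows of the same gene were summed. The 8 were MT3 (listed as MT-III and tied to MT3 by its transcript accession), MTF1, SLC30A1, SLC30A3, SLC30A10, SLC39A8 (listed under a LOC number and named by its product), SLC39A12 and SLC39A14. MT1A and SLC39A10 were not analysed here, since no row matched them. Both groups are frozen tissue of the same breed with no treatment in the labels, which do not give the part of the brain, the age and sex of the pigs, or whether 1 animal gave both pieces. With 1 library per tissue, no difference has a replicate check or a test, and every interval covers counting error only.

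Zinc is kept at a low free level in cells by binding proteins and by transporters of opposite direction. Metallothioneins are small cysteine-rich proteins that bind zinc and copper, and MTF1 is the zinc-sensing transcription factor that switches their genes on. SLC30 proteins (ZnT) move zinc out of the cytosol, either out of the cell or into vesicles, while SLC39 proteins (ZIP) move it in. Some members of both families also carry manganese, which the liver clears into bile, and neurons that release glutamate load zinc into synaptic vesicles.

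Total depth was 23796843 counts in brain and 31724498 in liver. Values are CPM, counts per 1000000 after scaling with TMM, a method that balances libraries of different composition, so that 1 CPM equals 34.9 counts in brain and 21.6 in liver. CPM are not corrected for transcript length and are compared here between tissues for 1 gene at a time. The log2 ratio is brain over liver with 1 CPM added to each value. A gene was called where this ratio reached 2 or -2, that is 4-fold, and at least 1 library reached 1 CPM. Plain library size moves every ratio without a pseudocount by 1.11 toward brain on the log2 scale, and moves the median over all genes to 0.98, against 0.01 with TMM. Neuron markers were called toward brain in 6 of 6 genes with a row, at 5864 summed CPM in brain and 11.9 in liver, and hepatocyte markers toward liver in 8 of 8, at 316 summed CPM in brain and 437500 in liver. In such bulk libraries, fewer cells of a type and less RNA per cell cannot be told apart.

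Of the 8 genes with a row, 1 was called higher in brain, SLC30A3, and 5 were called lower in brain than in liver, namely SLC39A8, SLC39A14, SLC30A1, SLC30A10 and the MT-III row. Over all 15561 genes at 1 CPM or more, 14.6% were called higher in brain and 11.3% higher in liver, 26.0% in all. All 8 genes passed the 1 CPM minimum, and their median log2 ratio was -2.51, against 0.01 over all genes. With plain library size, 2 were called in brain, SLC30A3 and SLC39A12, and 2 in liver, SLC39A8 and SLC39A14. Over all 15812 genes at 1 CPM or more with that scaling, 3817 were called in brain and 952 in liver. The 2 genes on the brain side and the 6 on the liver side had the same sign with the 3 other scalings.

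**Figure D1:**
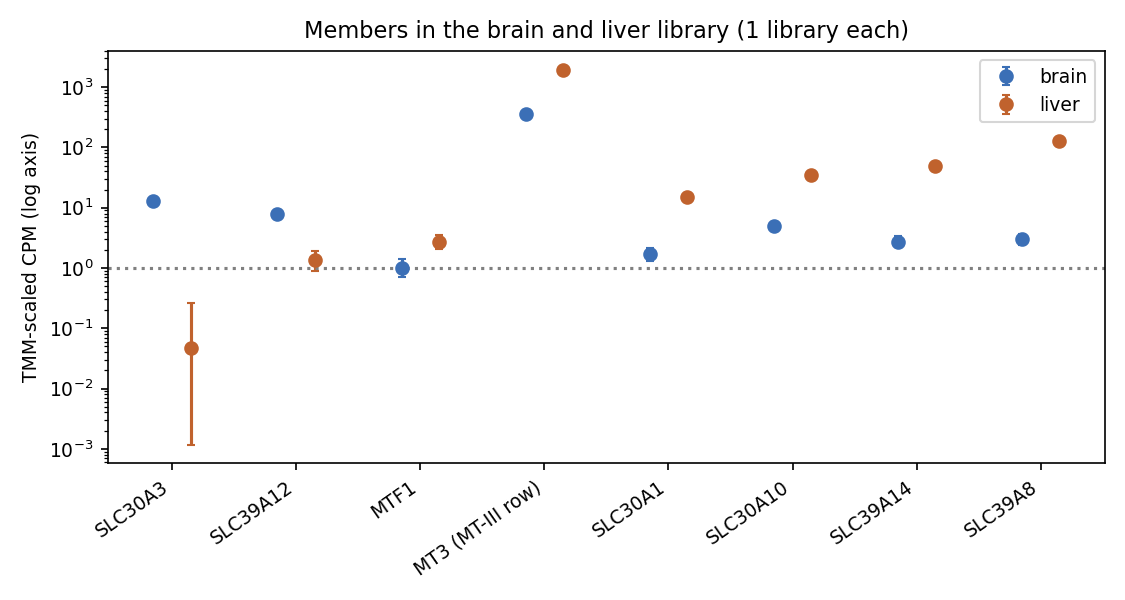
TMM-scaled CPM (log axis) of the 8 genes in the brain library (blue, left of each pair) and the liver library (orange, right), with bars for the exact 95% Poisson interval and a dotted line at 1 CPM. SLC30A3 and SLC39A12 lie higher in brain, and the other 6 genes lie lower in brain than in liver, by up to 43.8-fold for SLC39A8.

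Among the metallothioneins, the MT-III row, named for the growth-inhibitory form that is best known from brain, had 12533 counts (359 CPM) in brain and 42092 counts (1948 CPM) in liver. It was 5.43-fold lower in brain (95% interval 5.32 to 5.54), with a log2 ratio of -2.44, of -1.98 without the 50 highest genes, and of -1.33 with plain library size. This goes against the brain pattern known for MT3 in mammals, so the values are given for the MT-III row as deposited and not for MT3 alone.

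The other metallothionein row, MT-2B, a general metal-binding form, had 2185 counts (62.5 CPM) in brain and 53899 counts (2494 CPM) in liver. It was 39.9-fold lower in brain (38.2 to 41.6), a log2 ratio of -5.30. Metallothionein rows were thus lower in brain in 2 of 2 cases under every scaling run, and together took 0.0618% of brain counts and 0.303% of liver counts (Wilson 95% intervals 0.0609 to 0.0629 and 0.301 to 0.304).

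The balance between the 2 rows differed between the libraries, and this balance does not depend on how the libraries are scaled. In brain there were 5.74 MT-III counts for each MT-2B count, and in liver 0.781. MT-III thus made up 85.2% of the counts of these 2 rows in brain (84.6 to 85.7) and 43.9% in liver (43.5 to 44.2). Of 14 metallothionein names looked for, 12 matched no row, so these are not shares of all metallothionein expression. Relative to MT-2B, then, the MT-III row stood higher in brain, although its scaled level was lower there.

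What the MT-III row counts is uncertain. Its deposited span is 57912 bp and that of MT-2B is 884 bp, while metallothionein genes are short and their coding sequences closely alike. In the RefSeq gene order of the assembly Sscrofa11.1, used here for names and order only, the coding neighbours run BBS2, MT4, MT3, MT-2B, MT1D, 2 genes with LOC numbers, MT1A and NUP93. Of these, MT4, MT1D, MT1A and both LOC genes matched no row. In the deposited table MT-III stands before MT-2B, and MT-2B before BBS2, so MT-III is not on the BBS2 side of MT-2B as it is in that order. Whether reads of the copies with no row, or of MT-2B, fall in the MT-III row was not tested. The neighbouring BBS2 row, a ciliary gene, had 624 counts in brain and 358 in liver.

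The row of MTF1, the zinc sensor that drives metallothionein and SLC30A1 transcription, was sparse. It had 35 counts (1.002 CPM) in brain and 58 counts (2.68 CPM) in liver, a log2 ratio of -0.88, which falls short of a call. The 2.68-fold lower value in brain has an interval of 1.73 to 4.20, and plain library size put the log2 ratio at -0.19. Its deposited span of 2624 bp is short for a gene of several exons, and the share of the transcript it covers was not tested.

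Of the genes known as MTF1 targets besides the metallothioneins, 5 of 6 had a row. Their median log2 ratio was -1.69 (-0.93 with plain library size, where 1 was called in brain and 0 in liver). With TMM, 0 were called higher in brain and 2 lower, against 14.6% and 11.3% of all genes tested. SLC30A1 and GCLC, the catalytic subunit of glutathione synthesis (-2.02, and -0.93 with plain library size), were the 2. SELENOH, a nuclear selenoprotein, stood at 0.29, and PGF, a placental growth factor, at 1.76 with 100 counts in brain and 3 in liver. HAMP, given after its value was seen, had 1 count in brain and 50 in liver. Its log2 ratio of -1.69 is the list median, which thus rests on a sparse gene. Its fold was 80.85 lower in brain (13.86 to 3256).

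SLC30A3 (ZnT3), which loads zinc into the synaptic vesicles of glutamatergic neurons, had the highest ratio of the 8 genes. It had 456 counts (13.1 CPM) in brain and 1 count (0.0463 CPM) in liver. The ratio was 282, with an interval of 50.4 to 11160 because of the single liver count, and the log2 ratio was 3.75, above that of 94.4% of the genes tested. With a pseudocount of 5 the log2 ratio was 1.84, below the 4-fold mark.

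Of 11 genes of synaptic zinc in the wider list, 5 were called higher in brain and 1 lower (0 with plain library size). Over all genes tested, 14.6% were called higher in brain and 11.3% lower. The median log2 ratio of the list was 0.44. SLC17A7, the vesicular glutamate transporter of the neurons that use SLC30A3, had 18362 counts in brain and 18 in liver (8.17), and GRIN2B, a glutamate receptor subunit, stood at 5.16. The neuronal AP3 adaptor subunits AP3B2 (5.25) and AP3M2 (3.82), of the coat known to sort SLC30A3 to vesicles, and the zinc-sensitive receptor subunit GRIN2A were the others on the brain side, all 3 chosen after their values were seen. GRIN2A had 479 counts in brain and 0 in liver. It was 98.7-fold higher in brain against a floor of 3 liver counts, and the lower limit of its exact 95% interval was 79.99-fold. The AP3 subunit AP3B1 was lower in brain (-2.20, and -1.13 with plain library size), and AP3S2 was at -0.54 (0.54 with plain library size). The other AP3 subunits of the list, also given after their values were seen, were AP3S1 at 0.44, AP3D1 at 0.12 and AP3M1 at -0.80 (0.26 under plain library size). GPR39, the remaining gene of the list and likewise given after its value was seen, was at 0.07 (0.97 under plain library size). It had 164 counts in brain and 96 in liver.

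The other exporters of the set lay on the liver side. SLC30A1 (ZnT1), the exporter of the cell surface, had 59 counts (1.69 CPM) in brain and 329 counts (15.2 CPM) in liver, 9.02-fold lower in brain (6.82 to 12.1). SLC30A10 (ZnT10), known in humans as a manganese exporter of liver and brain, had 176 counts (5.04 CPM) in brain and 765 counts (35.4 CPM) in liver, 7.03-fold lower in brain (5.96 to 8.33). Both had a log2 ratio of -2.59, and with plain library size they stood at -1.71 and -1.58, short of a call. With a pseudocount of 5, SLC30A1 was at -1.60, short of a call, while SLC30A10 was at -2.01.

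Over the 10 SLC30 genes of the list used here, 8 reached 1 CPM. Of these, 1 was called higher in brain and 2 lower, against 14.6% and 11.3% of all genes tested. The median log2 ratio was -0.11 (0.93 under plain library size, 0.32 without the 50 highest genes). SLC30A4, an endosomal transporter, had 64 counts in brain and 1 in liver, a ratio of 39.6 (6.85 to 1587), but its low level put the log2 ratio at 1.44. The Golgi and secretory pathway transporters SLC30A5, SLC30A6 and SLC30A7 had log2 ratios of -1.69, 0.33 and -0.54, the last at 0.50 with plain library size. SLC30A9, a mitochondrial transporter, stood at 0.67. SLC30A2, known from mammary gland, had 9 counts in brain and 17 in liver, and SLC30A8, the transporter of insulin granules, had 0 in brain and 2 in liver, both below 1 CPM. For SLC30A8, a count of 0 in brain allows up to 0.0859 CPM.

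**Figure D2:**
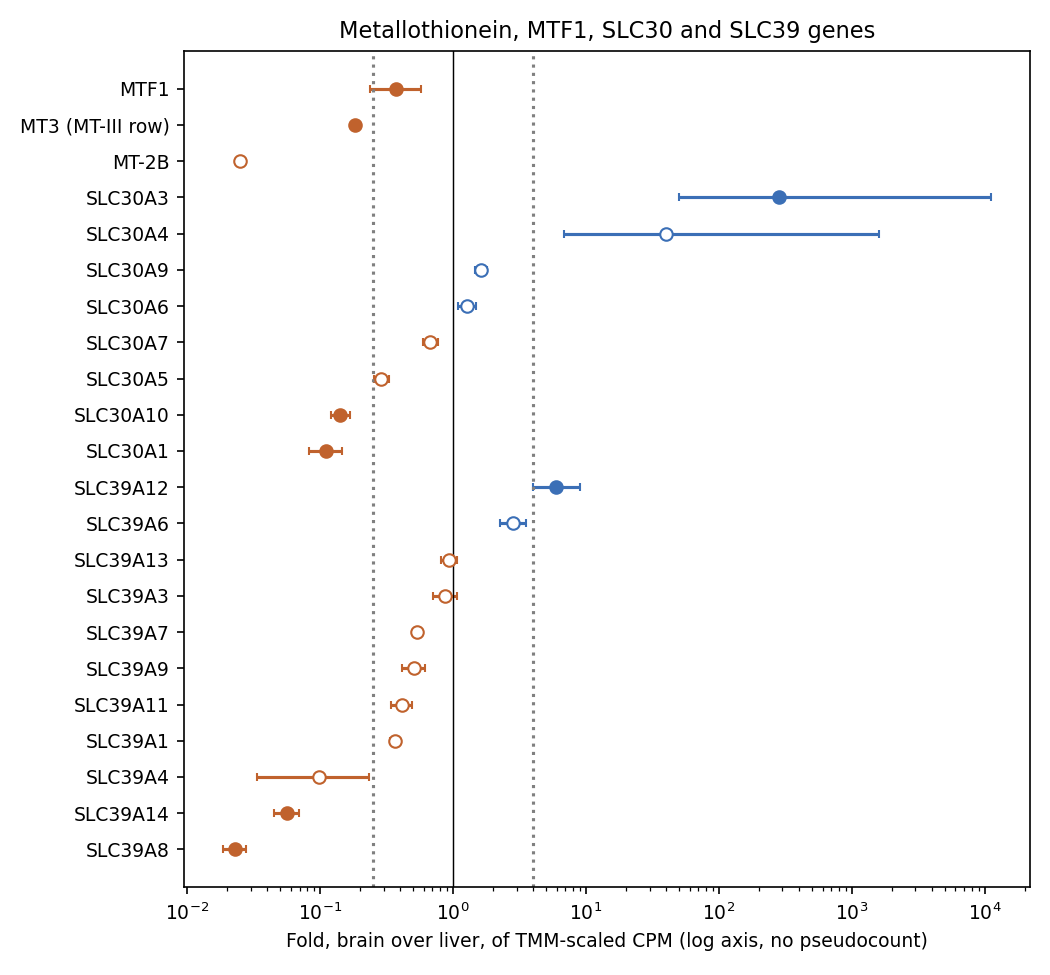
Fold, brain over liver, of scaled CPM (log axis, no pseudocount) with exact conditional binomial 95% intervals for MTF1 and for the metallothionein, SLC30 and SLC39 genes at 1 CPM or more. Filled points are the 8 genes of the set, open points the other family genes, blue is higher in brain, orange lower in brain, and dotted lines mark 4-fold. SLC30A3, SLC30A4 and SLC39A12 lie beyond 4-fold on the brain side, the first 2 with wide intervals from 1 liver count each.

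Among the importers, SLC39A8 and SLC39A14 lay furthest toward liver. SLC39A8 (ZIP8), which carries zinc and manganese and in mouse and human liver recovers manganese from bile, had 104 counts (2.98 CPM) in brain and 2820 counts (131 CPM) in liver. It was 43.8-fold lower in brain (36.0 to 53.8), with a log2 ratio of -5.05, and only 2.19% of the genes tested had a lower ratio. SLC39A14 (ZIP14), the hepatocyte importer of manganese, zinc and iron that inflammation induces, had 96 counts (2.75 CPM) in brain and 1060 counts (49.1 CPM) in liver. It was 17.9-fold lower in brain (14.5 to 22.2), a log2 ratio of -3.74. Both stayed beyond 4-fold with plain library size, at -4.07 and -2.77.

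SLC39A12 (ZIP12), an importer known mainly from brain, had 277 counts (7.93 CPM) in brain and 29 counts (1.34 CPM) in liver. The fold was 5.91 (4.02 to 8.99), but the log2 ratio with the pseudocount was 1.93, just short of a call, and it was 2.72 under plain library size, or 2.26 without the 50 highest genes. Astrocyte markers, which stand for a cell type that expresses this gene in other mammals, were called toward brain in 7 of 8 genes. Their sum was 2011 CPM in brain and 471 in liver, AQP4 was at 0 counts in liver, and ALDH1L1, which hepatocytes also make, was the gene on the liver side. Their part in the SLC39A12 value was not tested.

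Over the SLC39 family, 12 of 14 genes had a row and 11 reached 1 CPM. Of these 11, 0 were called higher in brain and 2 lower, against 14.6% and 11.3% of all genes tested. With plain library size 2 were called higher in brain, SLC39A12 and SLC39A6, and 2 lower. The median log2 ratio was -0.89, against 0.11 under plain library size. SLC39A6, a plasma membrane importer, stood at 1.32 (2.27 with plain library size). SLC39A7, which releases zinc from the endoplasmic reticulum, had 3927 counts in brain and 4514 in liver, a log2 ratio of -0.89 that turned to 0.21 with plain library size. SLC39A1, a surface importer of many tissues, was at -1.42, SLC39A11 at -1.15 and SLC39A4, the intestinal importer, at -1.24 with 6 counts in brain and 38 in liver. The Golgi-associated SLC39A9 and SLC39A13 had -0.86 and -0.10, and SLC39A3 had -0.18, and under plain library size all 3 turned positive, to 0.11, 0.94 and 0.79. SLC39A2 had 10 counts in brain and 0 in liver, below 1 CPM.

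The make-up of each transporter family is free of scaling and differed between the libraries. Of 3436 SLC30 counts in brain, SLC30A3 took 13.3% (12.2 to 14.4) and SLC30A9 38.4% (36.8 to 40.0), against 0.0328% (0.00578 to 0.185) and 16.5% (15.2 to 17.8) of 3052 counts in liver. SLC30A10 and SLC30A1 took 5.12% (4.43 to 5.91) and 1.72% (1.33 to 2.21) of the brain counts and 25.1% (23.6 to 26.6) and 10.8% (9.73 to 11.9) of the liver counts. The shares of SLC30A7 had intervals that overlap, 14.1% (13.0 to 15.3) in brain and 14.6% (13.4 to 15.9) in liver.

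Of 6780 SLC39 counts in brain, SLC39A8 and SLC39A14 took 1.53% (1.27 to 1.85) and 1.42% (1.16 to 1.73), against 25.8% (24.97 to 26.6) and 9.69% (9.15 to 10.3) of 10938 counts in liver. SLC39A12 took 4.09% (3.64 to 4.58) in brain and 0.265% (0.185 to 0.381) in liver. SLC39A7 held the most counts of the family in both, 57.9% (56.7 to 59.1) in brain and 41.3% (40.4 to 42.2) in liver, with no correction for length. SLC39A1 held 11.8% (11.0 to 12.5) in brain and 12.4% (11.8 to 13.0) in liver.

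**Figure D3:**
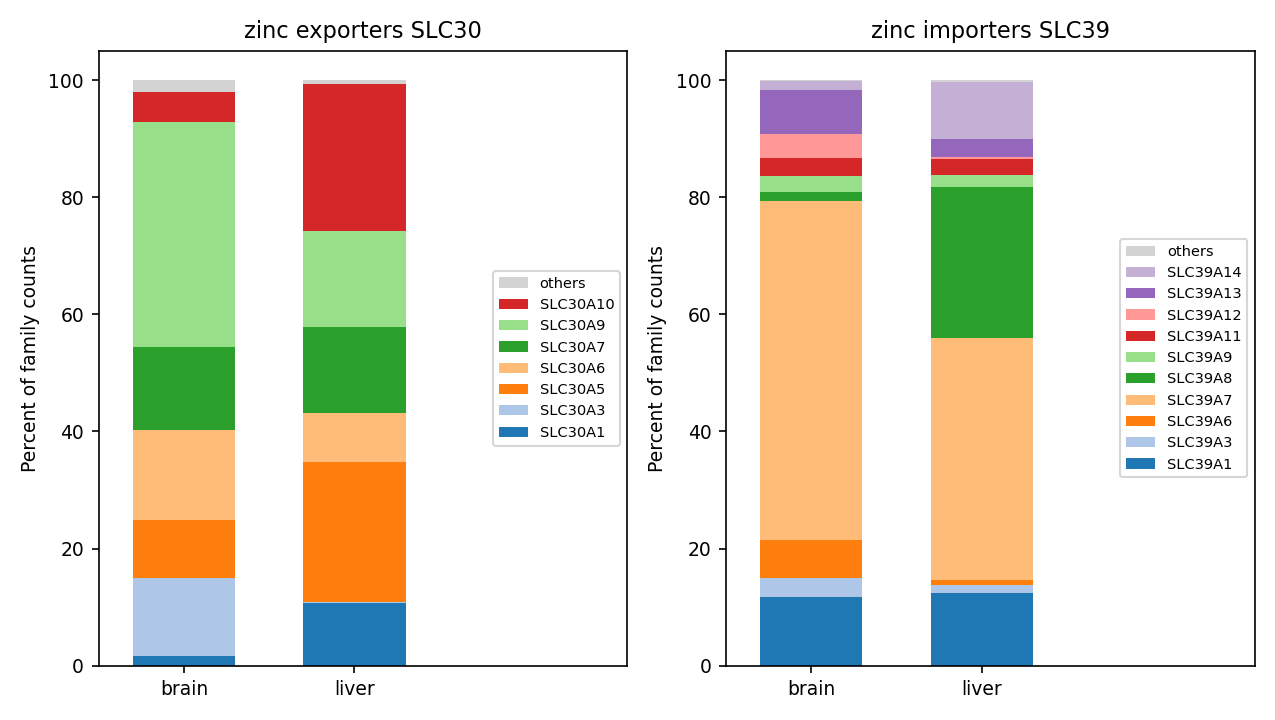
Percent of the counts of the SLC30 family (left panel) and the SLC39 family (right panel) that each gene took, with brain as the left bar and liver as the right bar of each panel, and genes under 2% in both libraries pooled as others. SLC30A3 is visible only in the brain bar, at 13.3%, and SLC39A8 widens to 25.8% in the liver bar, against 1.53% in brain.

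By fold, the order from the liver side to the brain side was SLC39A8, SLC39A14, SLC30A1, SLC30A10, MT-III, MTF1, SLC39A12 and SLC30A3. The intervals of SLC30A1 and SLC30A10 overlapped, so these neighbours could not be ordered at this depth, while the other neighbours in this order had intervals that did not overlap. The interval of MT-2B lay within that of SLC39A8.

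Transport of manganese and other divalent metals involves 3 genes of the set, SLC39A8, SLC39A14 and SLC30A10, which were all called lower in brain. The wider list includes these 3 genes, so its counts and median partly restate them. In it, 6 of the 8 genes with a row reached 1 CPM, and 0 were called higher in brain and 4 lower (1 and 3 with plain library size). Over all genes tested, 14.6% were called higher in brain and 11.3% lower. The median log2 ratio of the list was -3.15. The fourth gene called lower was TFRC, the transferrin receptor of iron uptake, at -3.70. ATP2C1, the Golgi pump for calcium and manganese, had 6450 counts in brain and 2017 in liver, at 0.98 and 2.07 with plain library size. TMEM165, a Golgi manganese transporter, stood at 0.45 (1.49 under plain library size) and was chosen after its value was seen.

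Copper shares the metallothioneins with zinc. Of 13 copper-handling genes, 11 had a row, with a median log2 ratio of -1.22 (-0.15 with plain library size). Of these, 0 were called higher in brain and 2 lower, against 14.6% and 11.3% of all genes tested. The 2 were CP, the copper-carrying plasma protein ceruloplasmin (-8.34), and ATP7B, the copper pump of the liver (-2.99, chosen after its value was seen). SOD1, the copper and zinc superoxide dismutase, was at -1.79 and COX17, a mitochondrial copper chaperone, at -1.22. COMMD1, a regulator of copper export, was at 0.95 (2.02 with plain library size).

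**Figure D4:**
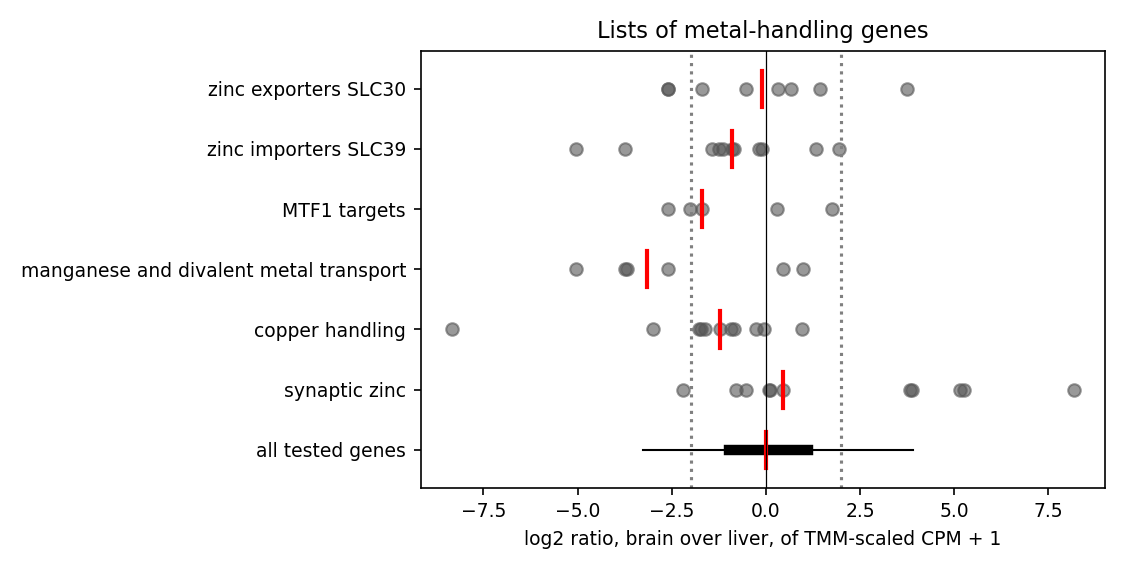
Log2 ratio, brain over liver, of each gene at 1 CPM or more (points) in 6 lists, with the list median as a red line. The bottom line gives all 15561 genes tested, with the median in red, the quartiles as the thick bar (-0.97 to 1.13) and the 5th to 95th percentile as the thin line (-3.26 to 3.91). From top to bottom, the list medians are -0.11 (SLC30), -0.89 (SLC39), -1.69 (MTF1 targets), -3.15 (manganese), -1.22 (copper) and 0.44 (synaptic zinc). The lists overlap, since SLC39A8, SLC39A14 and SLC30A10 are also in the manganese list and SLC30A1 is also among the MTF1 targets.

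Counts of genes typical of 1 tissue were also seen in the other library. The sample titles of brain and liver carry the same lane and barcode text, and whether this bears on such counts was not tested. For albumin, made by hepatocytes, the brain count equalled 0.0262% of its liver count (0.0249 to 0.0275). For 6 of the 7 other hepatocyte markers the share was 0.0286% to 0.0655%, and for APOA1 it was 3.40% (3.32 to 3.47). Among Kupffer cell markers it was 0.525% for CD5L, 0.981% for CD163, 1.52% for MARCO, 3.67% for MRC1 and 20.05% for VSIG4. The brain counts of the liver-side genes were larger percentages of their liver counts than that of albumin, from 3.69% for SLC39A8 (3.003 to 4.49) and 4.05% for MT-2B (3.88 to 4.23) up to 60.3% for MTF1. The SLC39A8 interval includes the APOA1 and MRC1 percentages. It lies above those of the other hepatocyte markers, CD5L, CD163 and MARCO, and below that of VSIG4. In the other direction, STMN2, a neuronal gene, had a liver count of 0.0141% of its brain count (0.00674 to 0.0259). For SLC39A12 this share was 10.5% (6.88 to 15.4), and for SLC30A3 it was 0.219% with an interval of 0.00554 to 1.23 that includes the STMN2 value. The single liver count of SLC30A3 could therefore not be told from such a level. Subtracting the albumin and STMN2 shares moved no call among the 8 genes. Shares this small could hardly move a call, and larger shares such as that of APOA1 were not subtracted.

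**Figure D5:**
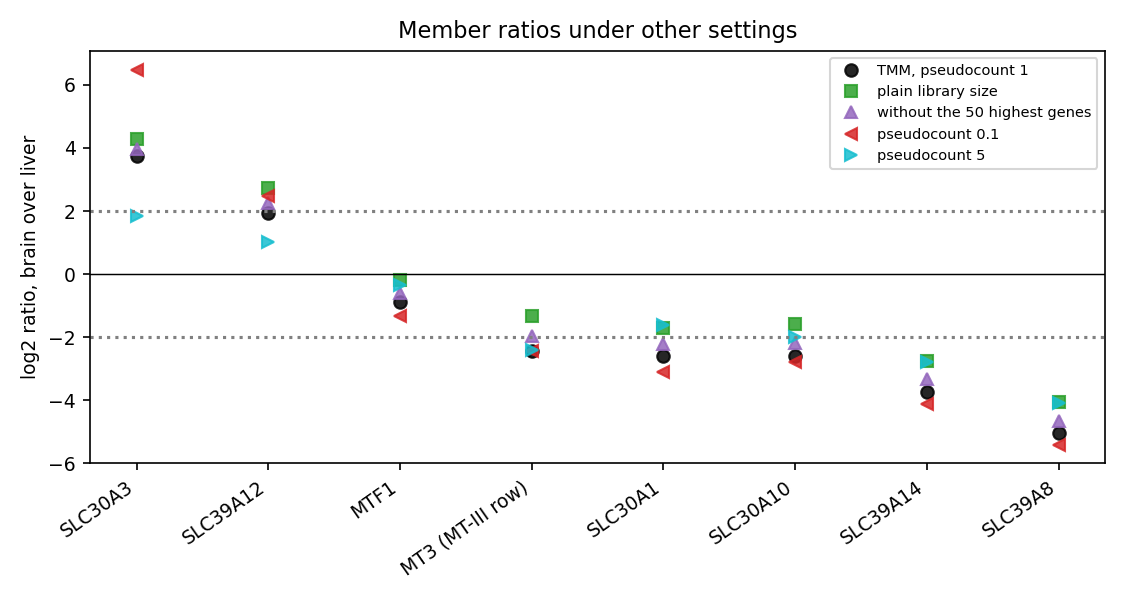
Log2 ratio, brain over liver, of the 8 genes with TMM and a pseudocount of 1 (black) and with 4 other settings, with dotted lines at 2 and -2. SLC39A8 and SLC39A14 stay below -2 in all 5, while SLC30A1, SLC30A10 and the MT-III row lie above -2 with plain library size, as do SLC30A1 with a pseudocount of 5 and the MT-III row without the 50 highest genes, and SLC30A3 ranges from 1.84 to 6.49.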

How the data were processed

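The authors deposited raw counts per gene in 1 table with a brain and a liver column, recognised here from whole numbers with different totals. Alignment was with TopHat against Sscrofa10.2 (susScr3), per the submitters' processing notes. How reads were counted, with which strand setting, and how reads that match several places were treated is not given in the sources used here. The deposited span, another value of the table in bp, is read here as a genomic span, and the table gives no start or end. Protein and promoter sequences were not used here. Rows were named from the table, the product, gene numbers or accessions through a RefSeq table of Sscrofa11.1, and summed per gene from 21817 rows. MT2B was read as MT-2B. TMM scaling used edgeR 4.0.16 under R 4.3.3, and no test was run. DESeq2 1.42.0 gave median-of-ratios scaling. Folds are without pseudocount and have exact conditional binomial 95% intervals, shares have Wilson intervals, and a count of 0 has a floor of 3 counts. The procedure was also run on simulated counts in which both libraries shared a profile apart from a set of genes raised in brain. The real libraries differ far more widely, so that run does not test the scaling used here. The genes and lists were chosen with earlier results of these data known. Named were the 10 genes, all metallothionein, SLC30 and SLC39 genes with a row, and from each other list the 4 with the highest mean CPM plus calls against its median, and some others that are marked as chosen after their values were seen. Beside these, cell marker lists were read for neurons, astrocytes, oligodendrocytes, hepatocytes, choroid plexus, Kupffer cells, erythroid cells, pancreas and cholangiocytes.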

Additional observations from a re-analysis of the deposited data

How the results depend on the processing

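Counts of calls are given as higher in brain and then higher in liver. Over all genes TMM gave 2277 and 1766. Plain library size gave 3817 and 952, a pseudocount of 5 gave 1231 and 1115, a 2-fold rule 4280 and 3800, and an 8-fold rule 1330 and 886. For the 8 genes of the set, 1 was called in brain and 5 in liver. Plain library size gave 2 and 2, and 2 were called in brain with a 2-fold rule, a pseudocount of 0.1 or without the 50 highest genes. With a pseudocount of 5 it was 0 in brain, and with an 8-fold rule 2 in liver. Without the MT-III row, a setting chosen after seeing the data, it was 1 and 4. Metallothionein rows called in liver were 2, and 1 with an 8-fold rule, plain library size or without the 50 highest genes. In the SLC30 family 1 was called in brain and 2 in liver. In brain it was 2 with a 2-fold rule or a pseudocount of 0.1, and 0 with a pseudocount of 5. In liver it was 0 with an 8-fold rule or plain library size, and 1 with a pseudocount of 5, where SLC30A1 was lost. In the SLC39 family 0 were called in brain, against 2 with a 2-fold rule or plain library size and 1 with a pseudocount of 0.1 or without the 50 highest genes, and 2 in liver, against 5 with a 2-fold rule. The causes were not tested. Median-of-ratios scaling, no filter, a filter at 5 CPM, the highest row per gene and subtraction of carry-over at the small albumin and STMN2 shares moved none of these counts by over 1.5 times. No sign of a ratio among the 8 genes changed with the 3 other scalings, with the highest row per gene or with subtraction of carry-over, and the other settings cannot change a sign. Depth limits MTF1 (35 and 58 counts) and the liver values of SLC30A3, SLC30A4 and SLC39A12. No paired analysis was possible because each tissue has 1 library.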

Other observations

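Transcripts outside the fixed lists also bear on zinc. TMEM163, a zinc transporter of synaptic vesicles that is not in the SLC30 list used here, was chosen after its values were seen. It had 870 counts (24.9 CPM) in brain and 11 counts (0.509 CPM) in liver, 48.9-fold higher in brain (27.2 to 98.3). TESMIN, whose deposited product is called metallothionein-like but which is a testis gene and no metallothionein, had 13 counts in brain and 3 in liver, below 1 CPM.

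Cell markers not given above were as follows. Oligodendrocyte markers were called toward brain in 5 of 5 genes at 1 CPM or more, at 2885 summed CPM in brain and 56.4 in liver, with MOG at 0 in liver. Kupffer cell markers were called toward liver in 5 of 5 (4 with plain library size), at 12.0 summed CPM in brain and 1455 in liver. Choroid plexus markers were called toward liver in 2 of 2 (1 with plain library size), FOLR1 and TTR, with AQP1 at 0 in brain, and their sums were 19.9 CPM in brain and 1748 in liver. TTR, at 1580 CPM in liver, is also in the hepatocyte list, so the liver sum does not measure choroid plexus. Erythroid markers were called toward liver in 2 of 4 genes (89.6 CPM in brain and 294 in liver), and cholangiocyte markers in 2 of 5 (29.2 CPM in brain and 41.4 in liver, with KRT7 at 0 in brain), and plain library size gave 1 for each list. Pancreas markers, of interest for SLC30A8, had 11 counts in brain and 11 in liver over 3 genes. Of the 9 LIV-1 type importers within the SLC39 family, 7 had a row, with 0 called higher in brain and 2 lower (2 and 2 under plain library size, or 1 and 2 without the 50 highest genes), and a median log2 ratio of -0.89 (0.21 under plain library size, -0.43 without the 50 highest genes). Over all genes tested with TMM, 14.6% were called higher in brain and 11.3% lower.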
